A study of Mus musculus with 27 samples.

Results

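The 10 genes followed here mark the alveolar type 1 cell of the lung, and they were read in a mouse model of severe asthma: Hopx, Akap5, Ager, Aqp5, Pdpn, Rtkn2, Cldn18, Clic5, Emp2 and Scel. They were chosen by symbol from a table of linear RNA that holds 21742 genes, and 10 of 10 were in it. Alveolar type 1 cells are the very thin, flat cells across which gas moves between air and blood, and they cover most of the inner surface of the lung although they are few. In the adult lung they can arise from alveolar type 2 cells, the rounded cells that make surfactant and act as stem cells of the alveolus. Type 1 cells lie on a shared basement membrane with capillary endothelium. Transcription factors of the NKX2-1, TEAD, KLF and GATA families and the stretch-responsive co-activators YAP and TAZ are known to hold this identity.

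The left lobes came from 27 mice of the strain BALB/c AnNHsd at an age of 87 days, and total RNA was sequenced after depletion of ribosomal RNA. Mice of the Saline group (n = 5) were not sensitized. In the CDG_HDM group (n = 10) the lungs had been sensitized with house dust mite (HDM) extract plus the adjuvant cyclic di-GMP (CDG), a signalling molecule of bacteria, over a protocol of 35 days. Dex_CDGHDM mice (n = 6) were in addition given dexamethasone, a glucocorticoid, by intraperitoneal injection at 3 mg/kg on each of days 11, 18 and 25. AM155 mice (n = 6) were given an oligonucleotide antisense to miR-155, carried by lipid nanoparticles and injected intravenously at 2 mg/kg on those 3 days. Sensitization of the AM155 mice is not spelled out in their labels, and none of the groups had nanoparticles or vehicle alone. Libraries are named by group and number, as in CDG_HDM 12.

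Values are TPM, a share of all transcripts on a fixed total that is scaled for transcript length. How circular TPM was scaled against linear TPM is not stated, and both were taken here as parts of 1 total. On that assumption, 10.1% ± 0.71 (SD, n = 5) of the scale lay outside the tables of linear and circular RNA in Saline libraries. In CDG_HDM libraries it was 20.5% ± 4.94 (SD, n = 10). Such a shift would move the TPM of every gene, so 3 other scalings were run. TPM keeps no read counts, so the depth behind each value is unknown. Saline 4 and AM155 6 stood apart from the other libraries on the second principal component, and AM155 5, AM155 6 and Dex_CDGHDM 4 had circular sums of 219215 to 240756 TPM against at most 109468 TPM in the others. Without the first pair 8 members were lower in CDG_HDM than in Saline, as were 40.6% of tested genes, and without the latter 3 libraries 8 members and 27% of tested genes were. Cage, litter and day are not in the labels, so p values measure only the spread between these libraries.

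The levels were those of a lung with type 1 cells in every group. Ager, the receptor for advanced glycation end products (RAGE) and the classical type 1 surface marker, was the highest of the 10 in 27 of 27 libraries, with a mean of 1566 TPM over all of them, and it was 43rd in the whole table. Hopx, a small homeodomain protein that binds no DNA itself, had a mean of 284 TPM and Cldn18, a claudin of the alveolar tight junction, 203 TPM. Emp2, a tetraspan membrane protein, stood at 170 TPM and Akap5, a scaffold that holds protein kinase A near the membrane, at 154.6 TPM. Clic5, a chloride intracellular channel protein tied to the actin cytoskeleton, was at 130 TPM, Rtkn2 at 95.1 TPM and Pdpn (podoplanin or T1-alpha), a mucin-type membrane protein, at 81.8 TPM. Aqp5, the water channel of the apical membrane, at 25.7 TPM, and Scel (sciellin), a protein of the cornified envelope, at 9.33 TPM held ranks 9 and 10 in every library. Markers of basal airway cells, a possible contaminant of dissected lung, summed to at most 13.8 TPM in any library.

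Not all 10 are private to type 1 cells: Pdpn is also made by lymphatic endothelium and mesothelium, Cldn18 also by type 2 cells, Aqp5 also by airway glands, and Clic5 and Emp2 also outside the epithelium. In RNA of a whole lobe, fewer type 1 cells and less RNA per type 1 cell cannot be told apart.

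The promoters of the 3 members with the largest fall after sensitization that have an entry in the RefSeq promoter table are shown because these genes carry the largest differences between groups. Each runs 5′ to 3′ from 250 bases before the transcription start to 50 bases after it on GRCm38.p6. The Scel window is chr14:103513091-103513390 on the plus strand, and the Akap5 window is chr12:76324641-76324940 on the plus strand. Hopx has entries for an upstream start, chr5:77115074-77115373, and a downstream start, chr5:77095218-77095517, both on the minus strand. Capitals mark a match to CAAGTG, the core bound by NKX2-1, on either strand in Scel and in the downstream Hopx window, and a match to ACANNNTGT, a pair of glucocorticoid receptor half-sites, in the upstream Hopx window.
Scel promoter: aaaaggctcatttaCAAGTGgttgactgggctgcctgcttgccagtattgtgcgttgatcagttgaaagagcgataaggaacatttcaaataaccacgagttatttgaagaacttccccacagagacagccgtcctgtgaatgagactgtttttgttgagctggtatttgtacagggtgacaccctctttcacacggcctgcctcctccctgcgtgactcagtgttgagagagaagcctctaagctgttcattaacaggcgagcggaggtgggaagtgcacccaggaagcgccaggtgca
Hopx upstream promoter: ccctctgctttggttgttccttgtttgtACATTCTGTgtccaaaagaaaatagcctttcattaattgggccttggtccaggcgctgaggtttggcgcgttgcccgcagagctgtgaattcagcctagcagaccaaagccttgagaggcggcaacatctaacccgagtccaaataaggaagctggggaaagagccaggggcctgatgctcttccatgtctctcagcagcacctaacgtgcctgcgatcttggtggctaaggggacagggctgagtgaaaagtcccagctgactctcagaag
Hopx downstream promoter: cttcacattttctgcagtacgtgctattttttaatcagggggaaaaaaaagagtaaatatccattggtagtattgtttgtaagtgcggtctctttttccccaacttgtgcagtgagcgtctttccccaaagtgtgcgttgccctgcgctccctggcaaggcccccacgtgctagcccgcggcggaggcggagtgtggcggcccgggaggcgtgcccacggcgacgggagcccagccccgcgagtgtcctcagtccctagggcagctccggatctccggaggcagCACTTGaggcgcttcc
Akap5 promoter: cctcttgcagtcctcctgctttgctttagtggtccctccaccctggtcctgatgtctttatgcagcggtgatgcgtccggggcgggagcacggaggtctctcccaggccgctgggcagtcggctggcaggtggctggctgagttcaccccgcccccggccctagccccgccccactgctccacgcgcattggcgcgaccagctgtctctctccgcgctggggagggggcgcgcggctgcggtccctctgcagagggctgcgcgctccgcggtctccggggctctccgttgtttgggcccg

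Of the 10 members, 9 had at least 1 promoter in that table and Rtkn2 had none, which gave 11 windows of 300 bases. CAAGTG, searched on both strands, was in 3 of the 11 windows, those of Scel, Cldn18 and the downstream Hopx start, and in 13.6% of the 32851 windows in the table. In Scel it began at position -236 relative to the start. ACANNNTGT was in 1 of 11 windows, the upstream Hopx one, at position -222, and in 6.85% of all windows. TGTTTAC, bound by FOXA proteins, was in 1 window, that of Pdpn, and in 3.65% of all. GGAATG, bound by TEAD proteins, was in 0 of the 11 and in 14.7% of all. The 4 motifs share no bases in these windows. A match is a run of letters, and binding was not measured.

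**Figure D1:**
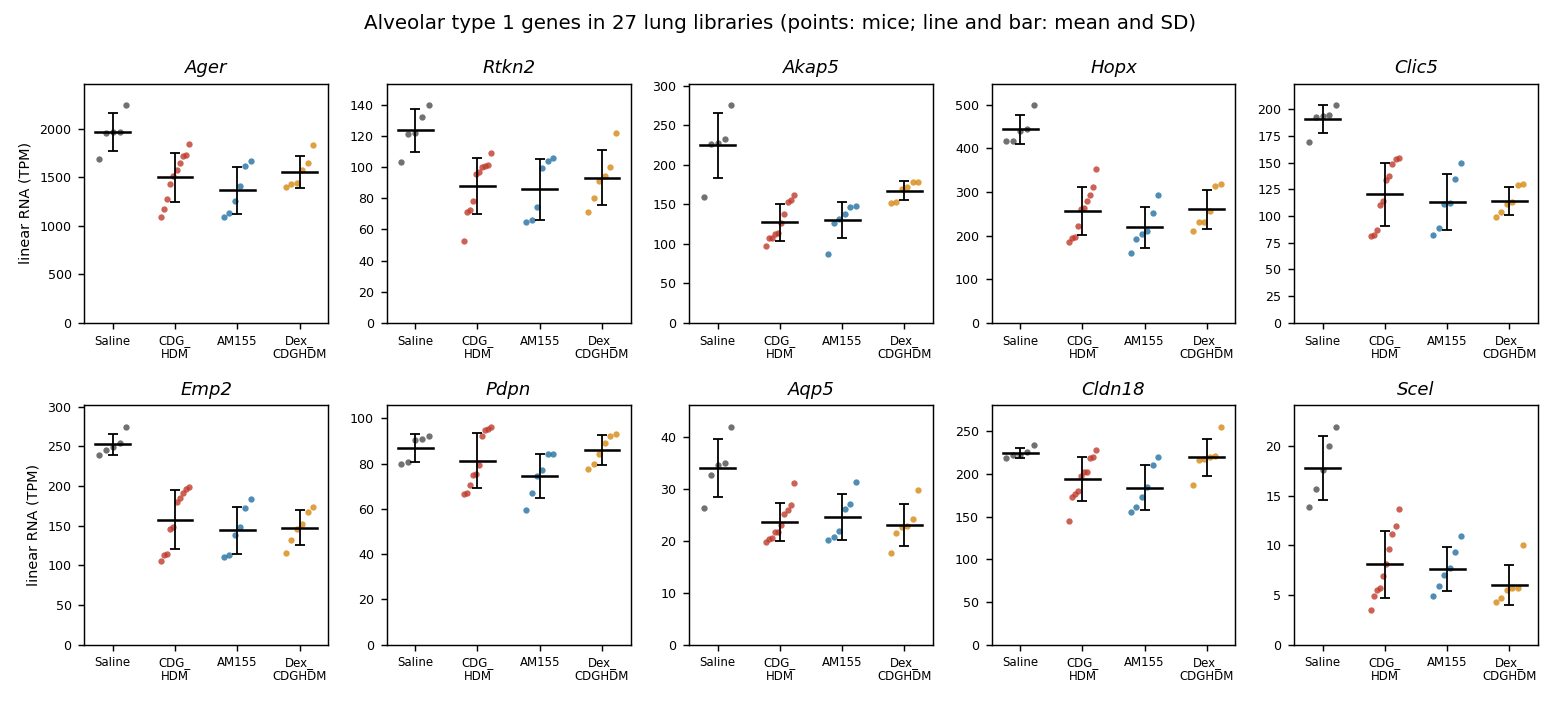
Linear RNA of the 10 genes in TPM (vertical axes, from 0, differing between panels) by group (horizontal axes), with 1 point per mouse, a line at the group mean and a bar of 1 SD to each side. For Hopx, Clic5, Emp2 and Scel, the 10 CDG_HDM points lie below the 5 Saline points, whereas Pdpn overlaps throughout.

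The first comparison, of sensitized with unsensitized lungs, asked how the model changes the lung. Of the 10, 8 fell in CDG_HDM and 0 rose (limma on log2(TPM + 1) of 17437 genes, Benjamini-Hochberg adjusted p under 0.05), where 22.8% of all tested genes fell and 9.35% rose. Over all genes that balance moved with the scaling, from 3976 lower and 1631 higher as deposited to 2705 lower and 4567 higher at a common linear sum, but 8 members were lower under each of the 3 other scalings. The median difference of the 10 was -0.61 on the log2 scale against -0.10 over all tested genes. For 4 members, every CDG_HDM library lay below every Saline library, which held for 8.92% of tested genes. Pdpn and Cldn18 did not pass the test.

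Scel showed the largest difference. Its Saline libraries held 13.9, 15.6, 17.6, 20.0 and 21.9 TPM, and the CDG_HDM libraries ran from 3.49 TPM in CDG_HDM 4 through a median of 7.49 to 13.7 TPM in CDG_HDM 3. The highest sensitized mouse thus stayed just under the lowest unsensitized one, and the sensitized group was also the more scattered. Scel fell by 1.12 ± 0.216 on the log2 scale (± SE, adjusted p = 0.000158), with a mean of 8.10 ± 3.39 TPM (SD, n = 10) against 17.8 ± 3.24 TPM (SD, n = 5). The gene lies at chr14:103513342-103612797 on GRCm38.

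Hopx, which marks type 1 cells and their precursors, had Saline values of 417, 418, 440, 445 and 499 TPM. In CDG_HDM it ran from 185 TPM in CDG_HDM 4 through a median of 263 to 353 TPM in CDG_HDM 3, with no overlap between groups. It fell by 0.82 ± 0.140 (adjusted p = 3.72e-05), from 444 ± 33.1 TPM (SD, n = 5) to 256 ± 55.7 TPM (SD, n = 10). The gene lies at chr5:77086988-77115121.

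Akap5 had Saline values of 160, 226, 228, 233 and 275 TPM, and CDG_HDM values from 97.8 TPM in CDG_HDM 12 through a median of 120 to 162 TPM in CDG_HDM 3. Saline 4, the low Saline value, was passed by CDG_HDM 3 alone, so 9 of 10 sensitized libraries lay below all Saline libraries. The fall was 0.81 ± 0.127 (adjusted p = 1.07e-05), from 224 ± 41.3 to 127 ± 23.0 TPM (SD, n = 5 and 10). The gene lies at chr12:76324891-76334153.

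The membrane-organizing genes Emp2 (chr16:10281749-10313968) and Clic5 (chr17:44188584-44280172) fell by similar amounts. Emp2 was at 239, 246, 249, 255 and 274 TPM in Saline libraries and between 105 and 199 TPM, with a median of 164, in CDG_HDM libraries. It fell by 0.71 ± 0.145 (adjusted p = 0.000303). Clic5 was at 169, 192, 193, 195 and 204 TPM in Saline libraries and between 81.4 and 154.7 TPM, with a median of 124, in CDG_HDM libraries. It fell by 0.70 ± 0.148 (adjusted p = 0.000473). Neither gene had a sensitized library inside the Saline range.

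Rtkn2 (chr10:67979570-68059740) and Aqp5 (chr15:99590782-99594829) fell less. Saline values of Rtkn2 were 103, 121, 122, 132 and 140 TPM, and CDG_HDM values ran from 52.6 TPM in CDG_HDM 12 through a median of 96.2 to 109 TPM in CDG_HDM 9. Its difference was -0.51 ± 0.148 (adjusted p = 0.00803), and 1 sensitized library reached into the Saline range. Saline values of Aqp5 were 26.3, 32.7, 34.7, 35.0 and 42.0 TPM, and CDG_HDM values ran from 19.9 through a median of 22.4 to 31.2 TPM. Its difference was -0.51 ± 0.119 (adjusted p = 0.00127), and 8 of 10 sensitized libraries lay below all Saline libraries.

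Ager, by far the most abundant, fell least of the 8. Its Saline values were 1689, 1951, 1962, 1968 and 2239 TPM, and its CDG_HDM values ran from 1087 TPM in CDG_HDM 12 through a median of 1544 to 1837 TPM in CDG_HDM 9. The groups overlapped in 3 sensitized libraries. The difference was -0.40 ± 0.119 (adjusted p = 0.00957), or 23.6% off the mean TPM. Ager lies in the major histocompatibility region of chromosome 17, at chr17:34597862-34600936. Its share of the summed TPM of the 10 genes was 55.0% ± 1.28 (SD, n = 5) in Saline and 58.7% ± 1.03 (SD, n = 10) in CDG_HDM, with no library of CDG_HDM (lowest 57.0%) inside the Saline range (highest 56.5%).

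Cldn18 (chr9:99689461-99717267) held close to 225 ± 5.74 TPM (SD, n = 5) in Saline libraries, at 219, 222, 223, 226 and 234 TPM. In CDG_HDM it ran from 145 through a median of 200 to 228 TPM, and the difference of -0.22 ± 0.095 missed the threshold (adjusted p = 0.0762, 95% interval -0.41 to -0.03). Without CDG_HDM 10 it passed (adjusted p = 0.0460). Pdpn (chr4:143267431-143299564) was at 79.7, 80.5, 90.2, 91.0 and 92.4 TPM in Saline and between 66.5 and 96.1 TPM, with a median of 77.3, in CDG_HDM. Its difference was -0.11 ± 0.096 (adjusted p = 0.426), and its interval of -0.30 to 0.09 leaves room for a fall of the size seen in Cldn18. Under median-of-ratios scaling and a common linear sum the sign of the Pdpn difference turned, to 0.01 and 0.06.

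Within the sensitized group, the members tended to be low in the same mice. CDG_HDM 12 was among the 3 lowest libraries for 9 members, and CDG_HDM 4 and CDG_HDM 14 for 7 each, while CDG_HDM 9 was among the 3 highest for all 10. The mean log2(TPM + 1) of the endothelial list was 6.44, 6.19 and 6.39 in CDG_HDM 12, 4 and 14 and at least 6.63 in the other 7. That of the pan-epithelial list was 4.59, 4.68 and 4.76 in those 3 and at least 4.80 in the others. The share of the scale outside both tables, on the assumption of 1 total, was 32.8%, 22.7% and 21.1% there and at most 21.0% in the others. Their part in the low values was not tested.

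The other libraries fell into a similar order. AM155 6 was the lowest of its group for 7 members, and both AM155 6 and AM155 8 were among the 3 lowest of 6 for all 10. AM155 6 also had the lowest linear sum of its group, 542264 TPM. Its members made up 0.3398% of that sum, against 0.296% in AM155 2 and 0.2894% in AM155 8. In Dex_CDGHDM, library 3 was the lowest for 6 members and library 6 the highest for 6. Saline 4 was lowest of its group for 5 members and highest for 2, Aqp5 and Emp2.

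Neighbouring genes in the order of levels were not all distinct. In Saline, the range of Akap5, 160 to 275 TPM, overlapped with those of Emp2, Cldn18 and Clic5, at 239 to 274, 219 to 234 and 169 to 204 TPM, and no other pair of ranges overlapped. Hopx held rank 2 or 3 in every library, and Rtkn2 and Pdpn shared ranks 7 and 8.

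To see whether the members fell more than lung epithelium as a whole, each library was centred on 14 general epithelial genes. These include the keratin gene Krt8 and the cadherin gene Cdh1. Some of the 14 are also in other lists used below, such as that of the tight junction, and 6 of the 14 fell in CDG_HDM. On the centred scale 6 of 10 members were lower in CDG_HDM and 0 higher, where 9.36% of tested genes were lower and 47.7% higher. Scel was lower by this measure, at -0.86 ± 0.189 (adjusted p = 0.000469), as were Hopx at -0.55 ± 0.108, Akap5 at -0.55 ± 0.102, Emp2 at -0.45 ± 0.106 and Clic5 at -0.43 ± 0.101. Aqp5 passed narrowly, at -0.24 ± 0.099 (adjusted p = 0.0395), and lost the call in 8 of 15 fits that left out 1 library, with the smallest value without Saline 4 (-0.14, adjusted p = 0.221). The other 7 were those without Saline 8 or 10 or CDG_HDM 4, 8, 10, 13 or 14, with adjusted p from 0.0512 to 0.0735. Ager, at -0.14 ± 0.081 (adjusted p = 0.148), and Rtkn2, at -0.25 ± 0.117 (adjusted p = 0.0715), did not pass. Rtkn2 passed without Saline 10 (adjusted p = 0.0274). Pdpn and Cldn18 had positive values of 0.16 and 0.05 that did not pass, where the median over all tested genes was 0.17, close to the Pdpn value. Pdpn passed as higher without any 1 of Saline 2, Saline 8, CDG_HDM 5, CDG_HDM 8 and CDG_HDM 10, with adjusted p from 0.0163 to 0.0482. With the 11 type 2 genes as the reference, 10 of 10 members were lower, Ager at -0.56 and Pdpn at -0.26, but so were 59.1% of tested genes, whose median was -0.25, close to the Pdpn value.

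A comparison chosen after the data were seen asked how the other 9 members moved against Ager itself. Relative to Ager in the same library, 5 of 9 were lower in CDG_HDM and 1 was higher, where 5.04% of tested genes were lower and 63.9% higher. Hopx was 22.7% ± 1.25 of the Ager TPM in Saline and 17.0% ± 1.70 in CDG_HDM (SD, n = 5 and 10), a difference of -0.42 ± 0.081 on the log2 scale (adjusted p = 0.000136). Scel stood at -0.72 ± 0.164, Akap5 at -0.41 ± 0.095, Emp2 at -0.31 ± 0.085 and Clic5 at -0.30 ± 0.076 relative to Ager. Rtkn2 and Aqp5 did not pass, at -0.11 ± 0.093 and -0.11 ± 0.102. Without Saline 4 or CDG_HDM 3, Cldn18 passed as higher (adjusted p = 0.0458 and 0.0282). Pdpn was the member that was higher with all libraries, at 0.30 ± 0.095 (adjusted p = 0.00864), from 4.44% ± 0.33 to 5.48% ± 0.70 of Ager. The median over all tested genes on this scale was also 0.30, so Pdpn stood where the typical gene did.

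**Figure D2:**
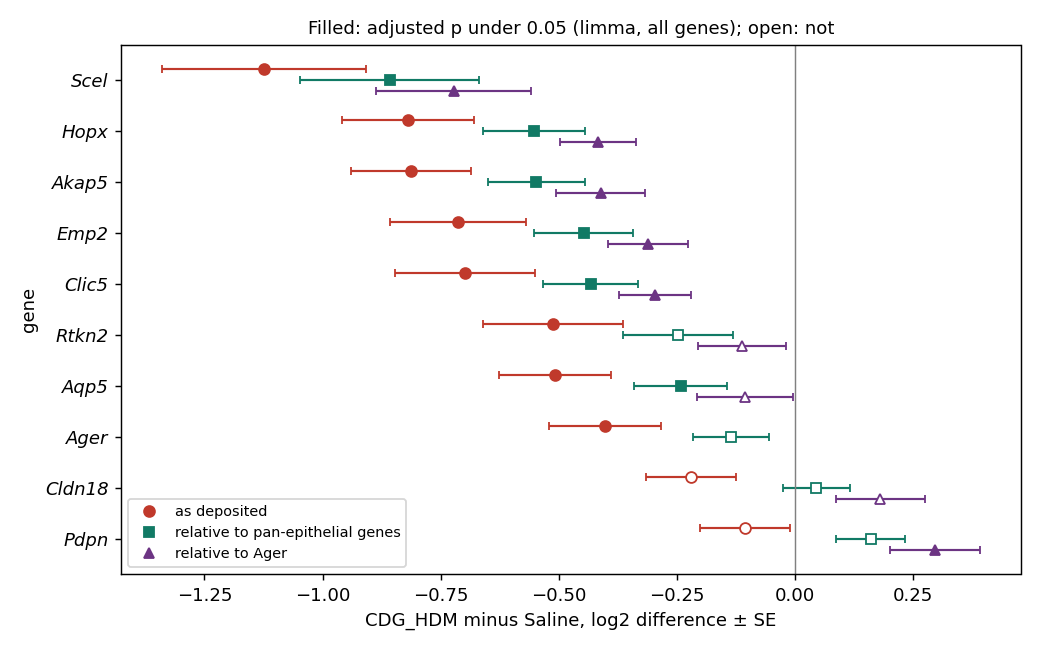
Difference of CDG_HDM from Saline for each gene (vertical axis) on the log2 scale (horizontal axis) with 1 SE to each side, as deposited (circles), relative to pan-epithelial genes (squares) and relative to Ager in the same library (triangles, 9 genes). Filled symbols passed an adjusted p of 0.05 over all tested genes. Scel, Hopx, Akap5, Emp2 and Clic5 are filled on all 3 scales.

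Genes outside the 10 were read from lists of known function. For the counts of these lists, 22.8% of all tested genes fell and 9.35% rose in CDG_HDM minus Saline, with a median of -0.10. Of 19 further type 1 genes, 18 fell and 0 rose after sensitization, with a median of -0.56. Vegfa, the endothelial growth factor that type 1 cells supply to capillaries, fell by 0.94 ± 0.168 (adjusted p = 6.39e-05), and Cav1, the coat protein of caveolae, fell by 0.86 ± 0.154 (adjusted p = 7.06e-05). Both are also made outside type 1 cells. Of 17 genes listed as regulators in alveolar epithelium, which include YAP targets, 12 fell and 1 rose, with a median of -0.50. Cebpa, which is not particular to type 1 cells, was the 1 that rose, at 0.36 ± 0.091 (limma, adjusted p = 0.00286). Nkx2-1, at -0.23 ± 0.104 (limma, adjusted p = 0.0975), did not pass, and neither did Tead2, Tead3 and Ctgf. The YAP targets Ankrd1 and Cyr61 changed most, at -1.37 ± 0.246 (adjusted p = 6.63e-05) and -0.92 ± 0.245 (adjusted p = 0.00395). Ankrd1 is also strongly made by heart muscle, and 6 of 6 cardiac muscle genes fell, with a median of -1.81. Of these Tnnc1 and Myh6 changed most, at -2.79 ± 0.322 and -2.44 ± 0.260. Cardiac muscle genes summed to 138 to 339 TPM in Saline libraries and 33.1 to 94.1 TPM in CDG_HDM libraries, and their part in the Ankrd1 fall was not tested.

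Of 11 genes of the alveolar tight junction, the seal in which Cldn18 takes part, 7 fell and 0 rose. Occludin (Ocln) fell by 0.67 ± 0.112 (adjusted p = 2.85e-05). Of 9 genes of alveolar fluid transport, in which Aqp5 takes part, 5 fell and 1 rose. Aqp1, the water channel of capillary endothelium, fell by 1.03 ± 0.187 (adjusted p = 7.62e-05) and the sodium channel subunit Scnn1b fell by 1.00 ± 0.128 (adjusted p = 4.76e-07).

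Markers of neighbouring cells did not all move one way after sensitization, where 22.8% of all tested genes fell and 9.35% rose. Of 11 type 2 genes, 0 fell and 3 rose, with the surfactant protein genes Sftpd at 0.81 ± 0.141 (adjusted p = 4.45e-05) and Sftpa1 at 0.35 ± 0.104 (adjusted p = 0.00906). The Sftpa1 call was lost with the replicate number as a block (0.20, adjusted p = 0.327). Their summed TPM ran from 22251 to 24464 in Saline and from 20885 to 30743 in CDG_HDM. The 14 pan-epithelial genes gave 6 falls and 0 rises, with a median of -0.21, Ocln at -0.67 and Krt8 at -0.56. Club cell genes fell in 4 of 5 cases, with Cyp2f2 at -1.19 and Scgb1a1 at -1.16, and ciliated cell genes in 4 of 6, with Tppp3 at -1.14 and Ccdc39 at -0.57. Of 3 tested basal cell genes 1 fell, Krt15 at -1.06, but its means were only 1.74 TPM in Saline and 0.27 TPM in CDG_HDM.

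Endothelial genes fell in 11 of 11 cases, with a median of -0.95, and Tek and Ednrb changed most, at -1.36 ± 0.193 and -1.16 ± 0.198. Their summed TPM was 2864 to 3393 in Saline libraries and 1230 to 2422 in CDG_HDM libraries. Macrophage genes rose in 7 of 8 cases and fell in 0, with C1qb at 2.67 and C1qc at 2.57. Their summed TPM was 244 to 275 in Saline libraries and 667 to 1501 in CDG_HDM libraries. Mesothelial genes fell in 3 of 4 cases, with Upk3b at -1.32 and Lrrn4 at -0.89, and fibroblast genes in 3 of 6, with Pdgfra at -0.80 and Col13a1 at -0.63. Lymphatic genes went both ways, with 2 of 6 lower (Lyve1 at -1.46) and 3 higher (Reln at 1.02), and their sums overlapped between groups. T and NK cell genes were lower in 2 of 8 cases and higher in 3, with Cd4 at 1.66 and Cd3e at 1.05. The endothelial, cardiac muscle, mesothelial and fibroblast sums of all CDG_HDM libraries thus lay below those of all Saline libraries, and the macrophage sums above. Epithelial lists were separated in the same way: the club, ciliated, pan-epithelial and further type 1 sums of CDG_HDM also lay below those of Saline. So did the sums of alveolar fluid transport. Whether a larger share of RNA from other cells accounts for any of the fall was not tested.

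**Figure D3:**
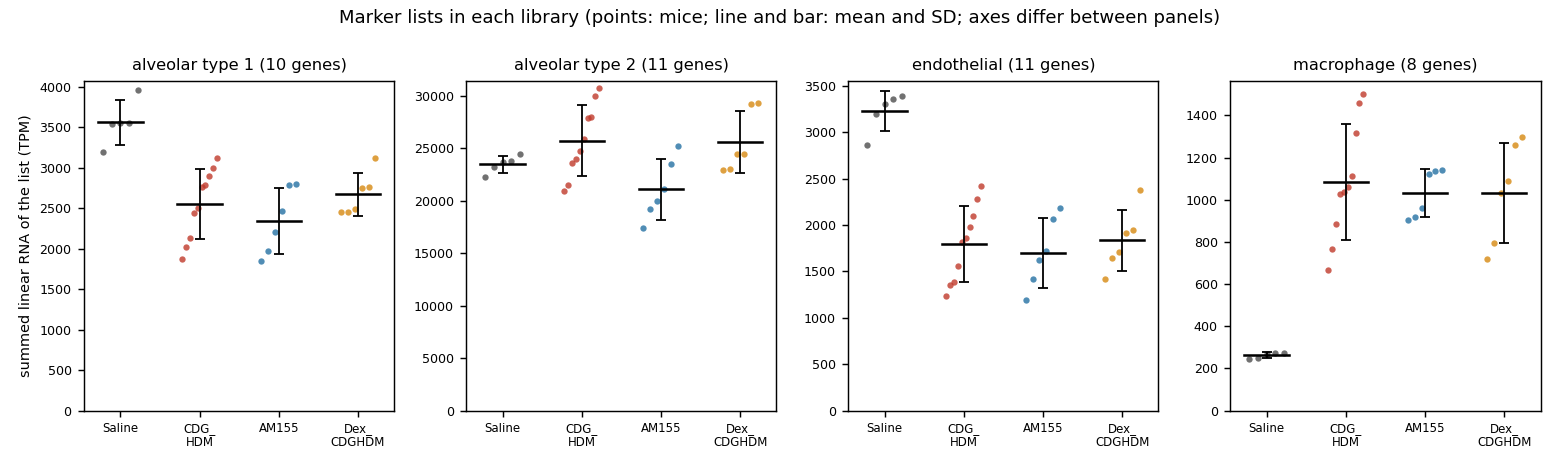
Summed TPM (vertical axes, from 0, differing between panels) of the 10 alveolar type 1 genes, 11 type 2 genes, 11 endothelial genes and 8 macrophage genes in each library by group, with 1 point per mouse and the mean and SD. The type 1 and endothelial sums of CDG_HDM lie below those of Saline, the type 2 sums overlap and the macrophage sums lie above.

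Dexamethasone was compared with sensitization alone to ask what the steroid changed. None of the 10 members passed the test (limma, 0 lower and 0 higher), and neither did nearly any gene: 0.00573% of tested genes were lower and 0% higher. At an unadjusted p under 0.05, 1 member of 10 was found, Akap5, where 3.97% of tested genes were. In Dex_CDGHDM its values were 152, 153, 170, 171, 178 and 179 TPM, a narrow band at the top of the CDG_HDM range of 97.8 to 162 TPM. Of the 6 libraries, 4 lay above all 10 CDG_HDM libraries, and the mean was 167 ± 11.8 against 127 ± 23.0 TPM (SD, n = 6 and 10). The difference was 0.41 ± 0.120 (adjusted p = 0.513). It passed under each of the 3 other scalings, with adjusted p = 0.0208 for median-of-ratios scaling, 0.0450 for quantile normalization and 0.0483 for a common linear sum, at 0.42, 0.41 and 0.45. Under those scalings 0.184%, 0.229% and 0.166% of tested genes were higher.

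The other members stayed nearer to the sensitized level. Cldn18 was at 220 ± 21.6 TPM (SD, n = 6) in Dex_CDGHDM against 194 ± 25.6 TPM (SD, n = 10), a difference of 0.18 ± 0.090 (adjusted p = 1.00). Scel ran from 4.31 through a median of 5.61 to 10.0 TPM, with a difference of -0.33 ± 0.203 and a 95% interval of -0.74 to 0.09. Hopx differed by 0.03 ± 0.132 (interval -0.23 to 0.30) and Ager by 0.06 ± 0.112 (interval -0.17 to 0.29). The upper end of the Hopx interval lies under 0.82, the distance between its Saline and CDG_HDM levels. No gene of any other list above passed in this contrast.

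Against Saline, which also serves the comparison of CDG_HDM, 6 members were lower in Dex_CDGHDM (17.5% of tested genes were) and 0 higher (7.59%). For 4 members, Hopx, Clic5, Emp2 and Scel, no Dex_CDGHDM library overlapped with Saline, where 12% of tested genes had all libraries lower. Scel stood at -1.45 ± 0.238 (adjusted p = 3.54e-05), Hopx at -0.78 ± 0.154, Emp2 at -0.78 ± 0.160, Clic5 at -0.74 ± 0.163 and Aqp5 at -0.54 ± 0.131. Akap5 passed at -0.40 ± 0.140 (adjusted p = 0.0328), a call that was lost in 6 of 11 fits that left out 1 library. It was -0.33 (adjusted p = 0.118) without Saline 8, and the adjusted p was 0.0638 to 0.0714 without Saline 2, 5 or 10 or Dex_CDGHDM 4 or 5. The call was also lost with the replicate number as a block (adjusted p = 0.0747) and under a common linear sum (-0.20, adjusted p = 0.174). Ager, at -0.34 ± 0.132 (adjusted p = 0.0583), and Rtkn2, at -0.42 ± 0.164 (adjusted p = 0.0614), missed the threshold. Both passed when only the groups compared entered the fit (adjusted p = 0.0184 and 0.0147) and without Dex_CDGHDM 6 (0.0362 and 0.0272), and Ager also without Saline 4 (0.0307). Cldn18 and Pdpn were at -0.04 and -0.01, and both turned positive under each of the 3 other scalings.

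The antimiR-155 group was compared with CDG_HDM in the same way. None of the 10 members passed (limma, 0 lower and 0 higher, and 0 at an unadjusted p under 0.05), where 0.0115% of tested genes were lower, 0.0918% higher and 7.24% at that unadjusted p. The differences ran from -0.22 ± 0.132 for Hopx (interval -0.49 to 0.05) to 0.05 ± 0.112 for Aqp5 (interval -0.18 to 0.28). Hopx ran from 160 through a median of 208 to 293 TPM in AM155, mostly in the lower part of the CDG_HDM range. Akap5, the gene that leaned up under dexamethasone, differed by 0.03 ± 0.120.

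Against the shared Saline group, 9 members were lower in AM155 (32.7% of tested genes were) and 0 higher (7.82%). For 6 members, Hopx, Akap5, Ager, Clic5, Emp2 and Scel, all AM155 libraries lay below all Saline libraries, as for 12.7% of tested genes. Scel was at -1.15 ± 0.238, Hopx at -1.04 ± 0.154 (adjusted p = 6.56e-06), Emp2 at -0.83 ± 0.160, Akap5 at -0.79 ± 0.140, Clic5 at -0.78 ± 0.163 and Ager at -0.54 ± 0.132. Rtkn2 at -0.55 ± 0.164, Aqp5 at -0.46 ± 0.131 and Cldn18 at -0.30 ± 0.105 also passed, but not under any of the 3 other scalings, which gave 6 lower members. Median-of-ratios scaling, quantile normalization and a common linear sum called 3438, 4042 and 2141 of 17437 tested genes lower, against 5695 as deposited. The Cldn18 call was also lost with only the groups compared (adjusted p = 0.0573), with the replicate block (0.0902) and without Saline 8, AM155 6 or AM155 8 (0.0560 to 0.0719). Pdpn did not pass, at -0.23 ± 0.106 (adjusted p = 0.0864), but did without AM155 3 (0.0494).

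**Figure D4:**
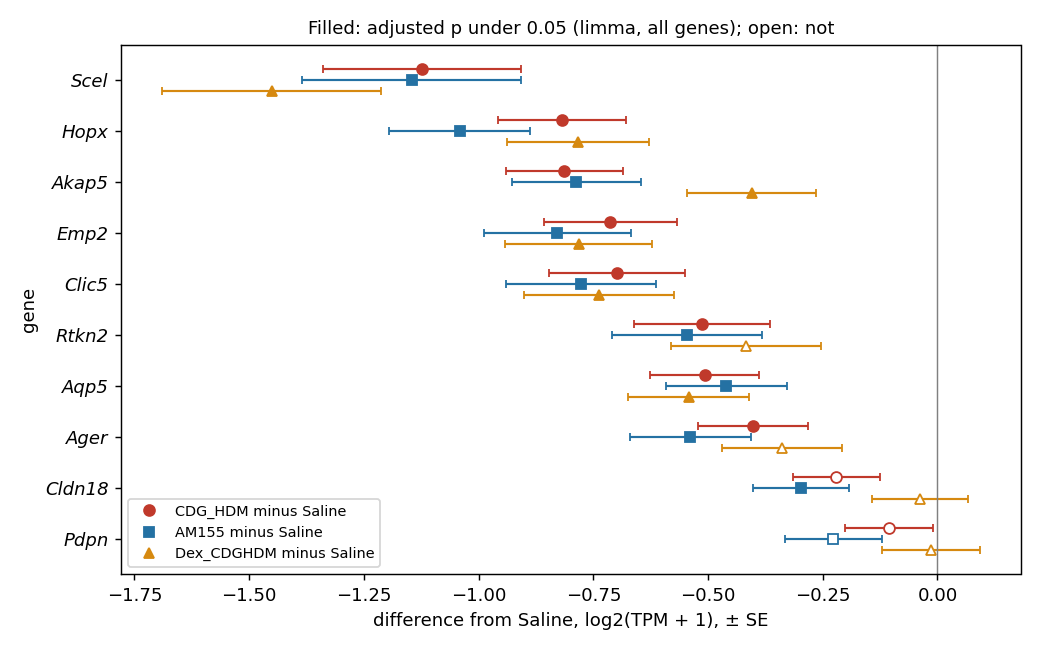
Difference of each sensitized or treated group from Saline for each gene (vertical axis) in log2(TPM + 1) (horizontal axis) with 1 SE to each side, for CDG_HDM (circles), AM155 (squares) and Dex_CDGHDM (triangles), which share the same 5 Saline libraries. Filled symbols passed an adjusted p of 0.05 over all tested genes. The Akap5 triangle, at -0.40, lies right of its circle at -0.81.

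The treated groups were also set against each other. In Dex_CDGHDM minus AM155, 0 members passed (limma, where 0.0631% of tested genes were lower and 0.0172% higher), and 3 had an unadjusted p under 0.05, as had 7.37% of tested genes: Akap5 at 0.38 ± 0.134, Cldn18 at 0.26 ± 0.1001 and Pdpn at 0.21 ± 0.101. For Akap5 alone all 6 Dex_CDGHDM libraries, from 152 TPM up, lay above all 6 AM155 libraries, which reached 148 TPM. Such separation was found for 0.419% of tested genes.

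The genes whose pattern over the 27 libraries was nearest to each member were found by the root mean square difference of centred log2(TPM + 1) values. Clic5 and Emp2 were nearest to each other among the members, at 0.089. That was rank 3 of all genes for Clic5 and rank 4 for Emp2. The nearest fellow member ranked further down for the rest, at 31 for Rtkn2, 86 for Hopx and 156 for Scel. It was at rank 499 for Aqp5, 549 for Akap5, 1758 for Ager, 2189 for Cldn18 and 6776 for Pdpn. This measure depends on how widely a gene varied as well as on the libraries in which it was high or low. The root mean square of the centred values was 0.181 for Pdpn and 0.636 for Scel. The ranks therefore cannot tell whether the members rose and fell in the same libraries. Outside the members, the nearest to Clic5 was Stard8 at 0.074 and the nearest to Emp2 was Cavin1, a caveolar coat protein, at 0.080. Hopx was nearest to Adgrf5 at 0.086, an adhesion receptor of alveolar and endothelial cells, and Ager to Kif1b at 0.079. Rtkn2 was nearest to Gramd2, itself a type 1 marker, at 0.130 and Scel to the endothelin receptor gene Ednrb at 0.190. Akap5 was nearest to Tnfrsf19, Aqp5 to 2310022B05Rik, Pdpn to Mrpl46 and Cldn18 to Hs2st1, at 0.121, 0.144, 0.096 and 0.101.

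Circular RNA, closed rings made by back-splicing of exons, was deposited in a second table by gene symbol, without junctions. Of the 10 members, 6 were in it: Rtkn2, Scel, Ager, Clic5, Hopx and Cldn18. Rtkn2 was above 0 in 27 of 27 libraries, as were 340 of 4416 genes. The test, chosen after the data were seen, used log2(TPM + 1) of 2271 circular genes. Circular Rtkn2 was at 162, 204, 209, 258 and 679 TPM in Saline libraries and ran from 69.8 through a median of 114 to 177 TPM in CDG_HDM. All but 1 CDG_HDM library lay below all Saline libraries, and Saline 5 stood far above the other Saline libraries.

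The difference of circular Rtkn2 was -1.24 ± 0.331 (adjusted p = 0.0595), where 0.925% of circular genes passed. It was -0.89 without Saline 5 (adjusted p = 0.193), -1.24 without Dex_CDGHDM 2 (adjusted p = 0.0419) and -0.84 after scaling to a common circular sum (adjusted p = 0.674). Relative to linear Rtkn2 in the same library, the circular form differed by -0.72 ± 0.290 (adjusted p = 0.488). Circular Scel was above 0 in 5 of 5 Saline libraries, at 1.67, 1.71, 2.08, 2.15 and 9.46 TPM, and listed at 0 in 8 of 10 CDG_HDM and all 6 Dex_CDGHDM libraries. Its difference missed the threshold in CDG_HDM (-1.52 ± 0.397, adjusted p = 0.0574), though not with the smallest value above 0 as pseudocount (adjusted p = 0.0460). It passed in Dex_CDGHDM against Saline (-1.90 ± 0.439, adjusted p = 0.0336, where 0.616% of circular genes passed), but not without Dex_CDGHDM 2 (adjusted p = 0.0623) or at a common circular sum (adjusted p = 0.0539). Clic5 was above 0 in 9 libraries, Ager in 6, Hopx in 4 and Cldn18 in 1.

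**Figure D5:**
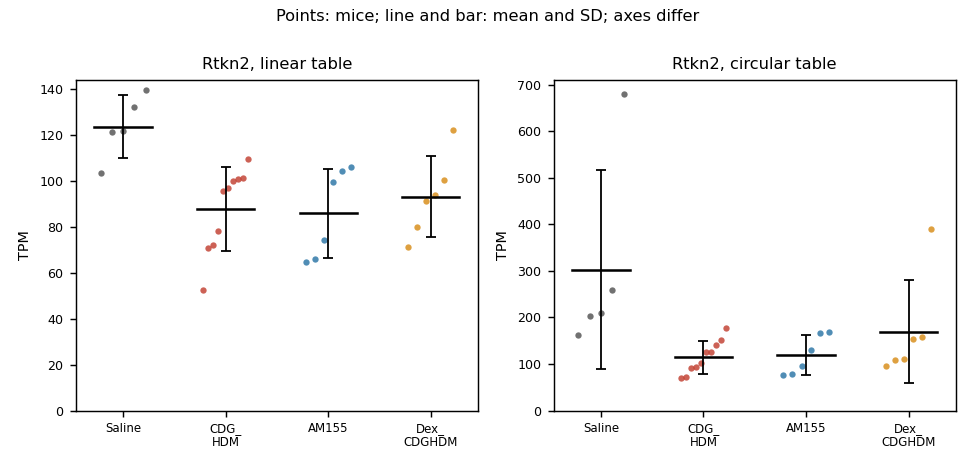
TPM of Rtkn2 (vertical axes, from 0, differing between panels) in the tables of linear RNA (left) and circular RNA (right) by group, with 1 point per mouse and the mean and SD. Saline 5, at 679 TPM, and Dex_CDGHDM 2, at 391 TPM, stand above the rest of their groups in the circular panel only.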

How the data were processed

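The deposited values are TPM computed by the authors for linear and circular RNA by gene symbol. Per the submitters' processing notes, mm10 and CASAVA 1.9 were used; aligner, quantifier, annotation and filters: not given in the sources used here. RNA integrity numbers were 6.9 to 8.6 per the labels' protocols. Gene positions are those of GENCODE M21 and promoters those of RefSeq.

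A gene was tested where 5 or more libraries held 1 TPM or more, which left 17437, and its values entered as log2(TPM + 1). All 27 libraries, grouped by their labels, entered 1 model in limma 3.58.1 under R 4.3.3 (empirical Bayes with a trend, two-sided, Benjamini-Hochberg over all genes, threshold 0.05), which was tested on simulated data. The ± after a log2 difference is its SE and intervals are 95%. A log2 difference with a pseudocount understates the change of low genes. The members and lists were chosen with earlier results of these data known. Beside the 10 members, the text names the 2 genes of each list with the largest difference past the threshold in CDG_HDM minus Saline. Genes of the regulator list that rose or did not pass are named as well. For the tight junction list, 1 of the 2 is not reported here.

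Alternatives were a pseudocount of 0.1, no filter, a mean of at least 5 TPM, 3 scalings (median-of-ratios, quantile, a common linear sum), no trend, only the groups compared, a replicate block, the type 2 list as reference and leaving libraries out. The comparison with Ager, the circular tests and the removal of the 3 libraries with high circular sums were chosen after seeing the data. A circular value of 0 can be a failed estimate and is described as listed at 0.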

Additional observations from a re-analysis of the deposited data

Results flagged for a closer look

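Of 44 sets of values from 1 gene in 1 group of 5 to 10 libraries, 4 held a library far from the others by Dixon's criterion, which chance alone meets in about 1 set in 20. Akap5 was at 86.8 TPM in AM155 6, against 126 TPM in the next lowest AM155 library. Scel was at 10.0 TPM in Dex_CDGHDM 2, against 5.74 TPM in the next highest. Circular Rtkn2 was at 679 TPM in Saline 5, against 258 TPM in the next, and at 391 TPM in Dex_CDGHDM 2, against 157 TPM in the next.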

How the results depend on the processing

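The 8 members lower in CDG_HDM than in Saline stayed at a count of 8 under every alternative that kept all libraries, and leaving out 1 library gave 8 to 9. Over all tested genes, leaving out 1 library gave 2995 to 5940 lower. All genes together did shift: their median difference was -0.10 as deposited, 0.01 under median-of-ratios scaling, -0.01 after quantile normalization and 0.04 at a common linear sum, and the calls over all genes went from 3976 lower and 1631 higher to 3757 and 3903, 4250 and 3571, and 2705 and 4567. In Dex_CDGHDM minus CDG_HDM, 1 member (Akap5) was higher under each of those 3 scalings, which called 32, 40 and 29 genes higher in all against 0 as deposited. In Dex_CDGHDM minus Saline, 1 (Pdpn, 0.1897, adjusted p = 0.0447) was higher at a common linear sum, as were 4452 tested genes. With 1 library left out of that contrast, 5 to 8 members (8 without Dex_CDGHDM 6) and 2275 to 4920 tested genes were lower. In AM155 minus Saline 8 to 10 members and 3956 to 8271 tested genes were lower with 1 library left out.

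Relative to pan-epithelial genes, 10 members and 59.1% of tested genes were lower with the type 2 list as reference, where Pdpn was at -0.2620 and Cldn18 at -0.3767, and with 1 library left out 0 to 1 were higher and 5 to 6 lower. Those fits with 1 library left out called 6670 to 8863 tested genes higher and 1467 to 1814 lower. Relative to Ager, 1 to 2 members and 9169 to 11843 tested genes were higher with 1 library left out.

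Signs turned for values near 0. Pdpn in CDG_HDM minus Saline was 0.0115 under median-of-ratios scaling and 0.0564 at a common linear sum. In Dex_CDGHDM minus Saline, Pdpn was 0.1139, 0.1081 and 0.1897 and Cldn18 was 0.0912, 0.0846 and 0.1676 under median-of-ratios scaling, quantile normalization and a common linear sum, and Pdpn was 0.0057 without AM155 5, AM155 6 and Dex_CDGHDM 4. Pdpn in AM155 minus Saline was 0.0521 at a common linear sum. Scgb1a1, the gene with the highest TPM, was at 0.0000 after quantile normalization, which fixes the top value. With 1 library left out, the values ran from -0.0274 to 0.0927 for Hopx in Dex_CDGHDM minus CDG_HDM, from -0.0170 to 0.1359 for Akap5 and from -0.0243 to 0.0997 for Aqp5 in AM155 minus CDG_HDM, from -0.0438 to 0.0149 for Pdpn and from -0.0821 to 0.0069 for Cldn18 in Dex_CDGHDM minus Saline, and from -0.1957 to 0.0233 for Aqp5 relative to Ager. Where not stated, the cause was not tested.

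The labels state no pairing of libraries by replicate number. Residuals of the same number correlated between -0.24 and 0.27 in the comparisons that include CDG_HDM, highest for number 5 of CDG_HDM and Saline. With so few shared numbers, this check cannot settle whether the numbers pair the libraries. With the replicate number as a block, 8 members were lower in CDG_HDM minus Saline, 5 in Dex_CDGHDM minus Saline and 8 in AM155 minus Saline. Of the 17437 tested genes, 2097, 1873 and 5146 were lower in these contrasts. Relative to pan-epithelial genes, 5 members and 1005 tested genes were lower in CDG_HDM minus Saline. Under the block, Hopx in Dex_CDGHDM minus CDG_HDM was -0.0366 and Akap5 in AM155 minus CDG_HDM was -0.1271. The Sftpa1 call in CDG_HDM minus Saline was lost (0.1996, adjusted p = 0.327).

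A whole lobe mixes cell types, and 5 Saline libraries limit every comparison with them.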

Other observations

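Ligands and partners of RAGE, the receptor encoded by Ager, moved in both directions. Of 8 tested, 5 fell and 1 rose after sensitization, where 22.8% of all tested genes fell and 9.35% rose. S100a8, a calcium-binding protein of neutrophils, fell by 1.26 ± 0.257 (limma, adjusted p = 0.000313), and S100a4, made by many motile cells, rose by 1.68 ± 0.158 (adjusted p = 2.44e-09). In AM155 minus CDG_HDM, S100a8 rose by 1.41 ± 0.243 (adjusted p = 0.00738), while Ager differed by -0.14 ± 0.112 (adjusted p = 0.718).

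Of 16 genes that mark cells on the way from type 2 to type 1, 6 fell and 1 rose in CDG_HDM. Over all tested genes, 22.8% fell and 9.35% rose. Krt19 fell by 0.81 ± 0.117 (adjusted p = 3.32e-06), and Lgals3, which macrophages also make in quantity, rose by 0.74 ± 0.148 (adjusted p = 0.000258). Neither treatment moved any of the 16 past the threshold against CDG_HDM, where nearly no gene passed. Of all tested genes, 0.00573% were lower and 0% higher in Dex_CDGHDM, and 0.0115% lower and 0.0918% higher in AM155.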
